A study of Sus scrofa with 10 samples.

Results

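The SLC25 genes encode the mitochondrial carriers, the largest family of solute transporters of the inner mitochondrial membrane. Of 25880 genes in the deposited table, 43 had a pig symbol beginning SLC25A, 41 from the Ensembl name table and 2 (SLC25A29 and SLC25A37) from the overlapping RefSeq gene. They were followed across 9 tissues of Northeast Min pigs, a domestic breed, at an age of 60 days. The tissues were 3 striated muscles (heart, psoas major and longissimus dorsi), kidney, liver, lung, spleen, ovary and the adipose tissue under the skin, called adipose tissue here. Each tissue had 1 library, and 1 further library came from a pool of tissues. The labels name no treatment or genotype and do not say how many animals were used. No difference between tissues therefore has a replicate check, and neither an error nor a p-value is given. In bulk tissue, fewer cells of a type and less RNA per cell cannot be told apart.

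Carriers share a fold of repeated pairs of membrane helices, and each moves a small set of metabolites across a membrane that is otherwise closed to them. ADP/ATP and phosphate carriers supply ATP synthase. Carriers of aspartate, glutamate, malate and 2-oxoglutarate pass reducing equivalents between cytosol and matrix, and others move citrate for lipid synthesis, acylcarnitines for fatty acid oxidation, ornithine for the urea cycle, iron for haem, or cofactors. Tissues differ in how much mitochondrial membrane their cells hold, so a list of 20 respiratory chain genes, 19 of which had a row, was set beside them.

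The libraries could be matched to their labels. Each of 8 tissue classes, with both skeletal muscles averaged, had 5 listed markers, and every one of them with a row was highest in its own class. The cardiac markers NPPA and MYL7 were not analysed here. Liver transcripts were also present in adipose tissue, where ALB stood at 127 FPKM, and in longissimus dorsi, where it stood at 25.0. The summed FPKM of a tissue library ran from 292495 to 369254. The sources used here give no read totals. The commonest step between values of short genes corresponded to 11600000 fragments in the shallowest and 31500000 in the deepest library, uncertain by a factor of 2.

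Most carriers were transcribed widely, and kidney held the most of them. At 1 FPKM or more, 41 of the 43 members were detected in at least 1 tissue and 26 of those 41 in all 9, beside 49.0% of all genes detected in any tissue. Of all 25880 genes, 15637 were detected in at least 1 tissue. Kidney detected 39 members, ovary 38, adipose tissue 37, heart 35, liver and spleen 34 each, psoas major 33, and lung and longissimus dorsi 32 each. All genes ranked otherwise, with 13164 detected in ovary, 12788 in lung, 11997 in spleen, 11901 in kidney and 11410 in adipose tissue. Heart detected 10769 of them, psoas major 10243, liver 9802 and longissimus dorsi 9592. SLC25A41 and SLC25A53 reached 1 FPKM in no tissue, at most 0.316 and 0.782, both in lung. SLC25A31 was the only member detected in exactly 1 tissue, a state shared by 10.9% of all genes. Over the 8 classes, 14 of 41 members were highest in kidney, 6 in ovary, 5 in adipose tissue, 4 in heart, 4 in skeletal muscle, 3 in liver, 3 in lung and 2 in spleen. Among all genes, 13.0% were highest in kidney, 29.0% in ovary, 6.72% in adipose tissue, 7.04% in heart, 4.38% in skeletal muscle, 5.67% in liver, 15.0% in lung and 19.2% in spleen. The kidney share of the members therefore lay above that of all genes, and the ovary, lung and spleen shares below. The kidney count was 9 after median-of-ratios scaling and 4 when values were taken relative to the respiratory chain. The shares of all genes were not computed under those scalings, so these counts mark nothing particular to the members. Of the 41 members, 17 kept 1 highest class under all 4 scalings run.

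**Figure D1:**
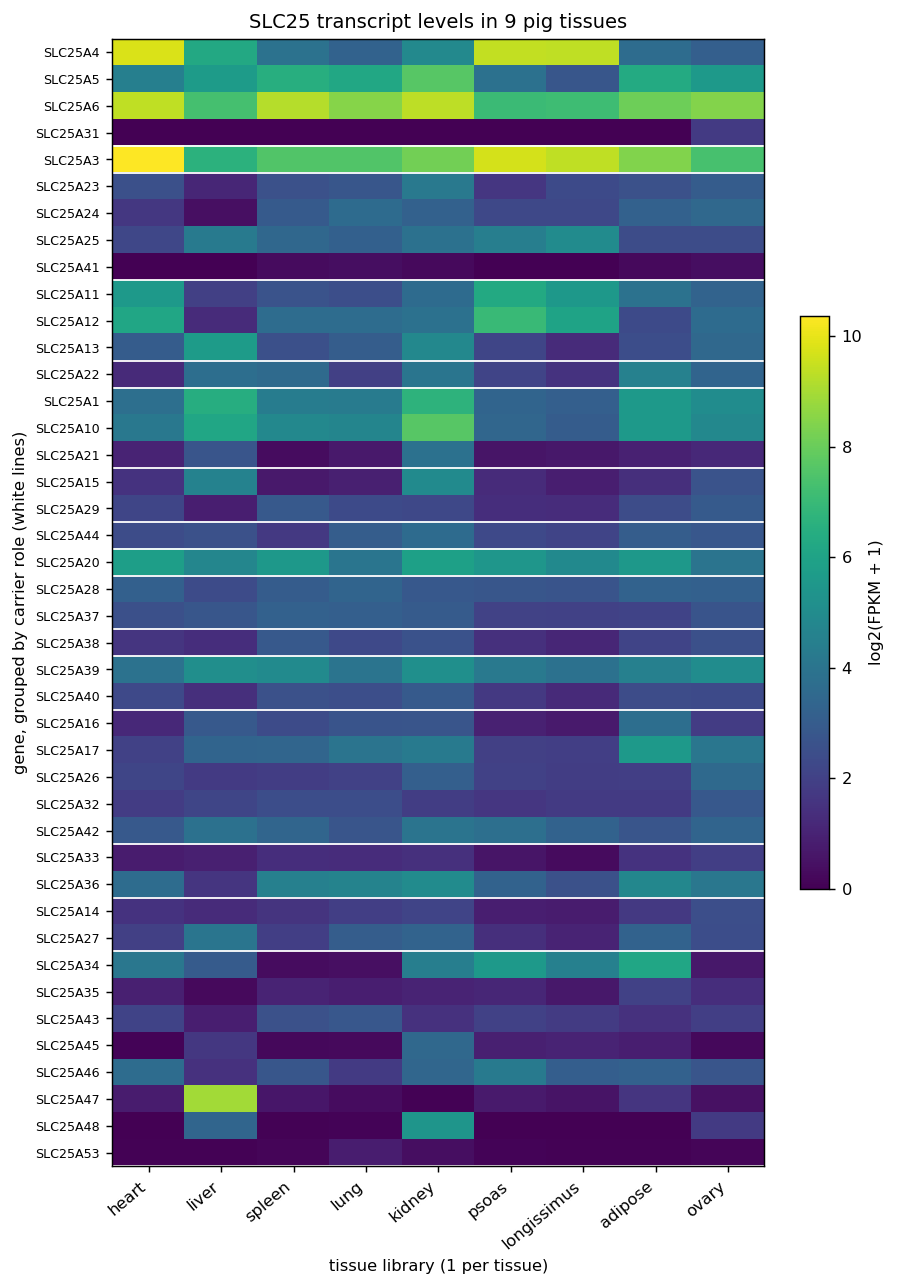
Level of each SLC25 member reported here (rows, grouped by carrier role and divided by white lines) in the 9 tissue libraries (columns), as log2(FPKM + 1) in colour. SLC25A3 and SLC25A6 are bright in every tissue, SLC25A4 in heart and both muscles, and SLC25A47 in liver.

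The summed level of the family was highest in heart, at 3203 FPKM or 0.973% of the library, and lowest in ovary, at 860 FPKM or 0.280%. Psoas major (2111), kidney (1934) and longissimus dorsi (1750.4) followed heart, then liver (1305), spleen (1170.5), adipose tissue (1150.4) and lung (867). SLC25A3, SLC25A4, SLC25A5 and SLC25A6 alone made up 89.6% of the sum in heart and 60.0% in kidney. In liver they made up 29.7%, while SLC25A47 alone took 37.6% there. The other 39 members summed to 332 FPKM in heart, 774 in kidney and 918 in liver. The median of the respiratory chain genes was 241 FPKM in heart, 187 in psoas major, 122 in kidney, 116 in longissimus dorsi and between 45.6 and 55.6 in the other 5 tissues. The liver sum of the other 39 rested on SLC25A47: without that gene it was 427 FPKM, below kidney (774), adipose tissue (451) and psoas major (443).

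**Figure D2:**
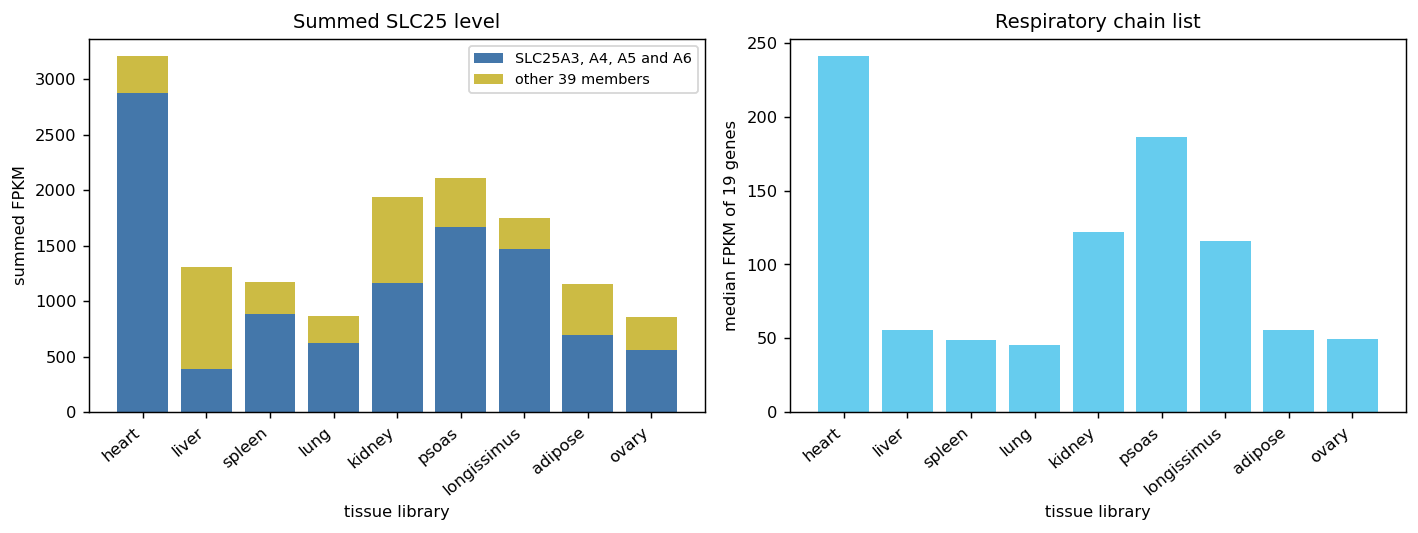
Summed FPKM of the SLC25 members in each tissue library (left), divided into SLC25A3, A4, A5 and A6 and the other 39, and the median FPKM of 19 respiratory chain genes (right). Heart leads both panels, and the other 39 members sum to more in liver and kidney than in heart.

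ADP/ATP carriers exchange matrix ATP for cytosolic ADP, and the 4 genes of this group divided by tissue. SLC25A4 (ENSSSCG00000015790, chromosome 15, 46193493 to 46200987), which encodes the form known from human heart and muscle, stood at 874 FPKM in heart, 691 in psoas major and 661 in longissimus dorsi. It stood at 75.5 in liver, 28.6 in kidney, 13.95 in spleen, 11.6 in adipose tissue, 8.55 in lung and 7.82 in ovary. The 3 striated muscles lay above every other tissue, and their order changed with scaling. SLC25A5 (ENSSSCG00000012623, chromosome X, 97919295 to 97922310), known from human work for its rise in dividing cells, ran the other way. As deposited, it was highest in kidney (201 FPKM), followed by spleen (88.8), adipose tissue (80.4), lung (73.7), liver (50.5) and ovary (47.4), and lowest in heart (21.1), psoas major (13.8) and longissimus dorsi (5.78).

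SLC25A6 (ENSSSCG00000033673, on an unplaced scaffold) was the most even of the 4. It stood at 657 FPKM in heart, 647 in kidney, 595 in spleen, 354 in lung, 345 in ovary, 272 in adipose tissue, 160 in liver, 141 in longissimus dorsi and 135 in psoas major. Heart and kidney changed places when libraries were scaled to the mean sum. Its gene model shares 24499 bp with that of ASMTL on the same strand, which stood between 0.993 and 12.3 FPKM. SLC25A31, a carrier of germ cells in mouse and human, was at 2.39 FPKM in ovary, at 0.0272 in lung and listed at 0 in the other 7 tissues. SLC25A4 made up 56.3% of the group in heart, less than in psoas major (82.3%) and longissimus dorsi (81.8%). SLC25A6 made up 85.7% in ovary, 85.3% in spleen, 81.2% in lung, 74.8% in adipose tissue and 73.8% in kidney. Liver was mixed, with 55.9% SLC25A6, 26.4% SLC25A4 and 17.7% SLC25A5.

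The phosphate carrier gene SLC25A3 (ENSSSCG00000000886, chromosome 5, 85284316 to 85292451) reached 1319 FPKM in heart, the highest value of any member in any tissue. It stood at 827 in psoas major, 657 in longissimus dorsi, 333 in adipose tissue, 283 in kidney, 186 in spleen, 185 in lung, 161 in ovary and 102 in liver. Adipose tissue thus lay above kidney, although its respiratory chain median of 55.3 was below that of kidney.

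**Figure D3:**
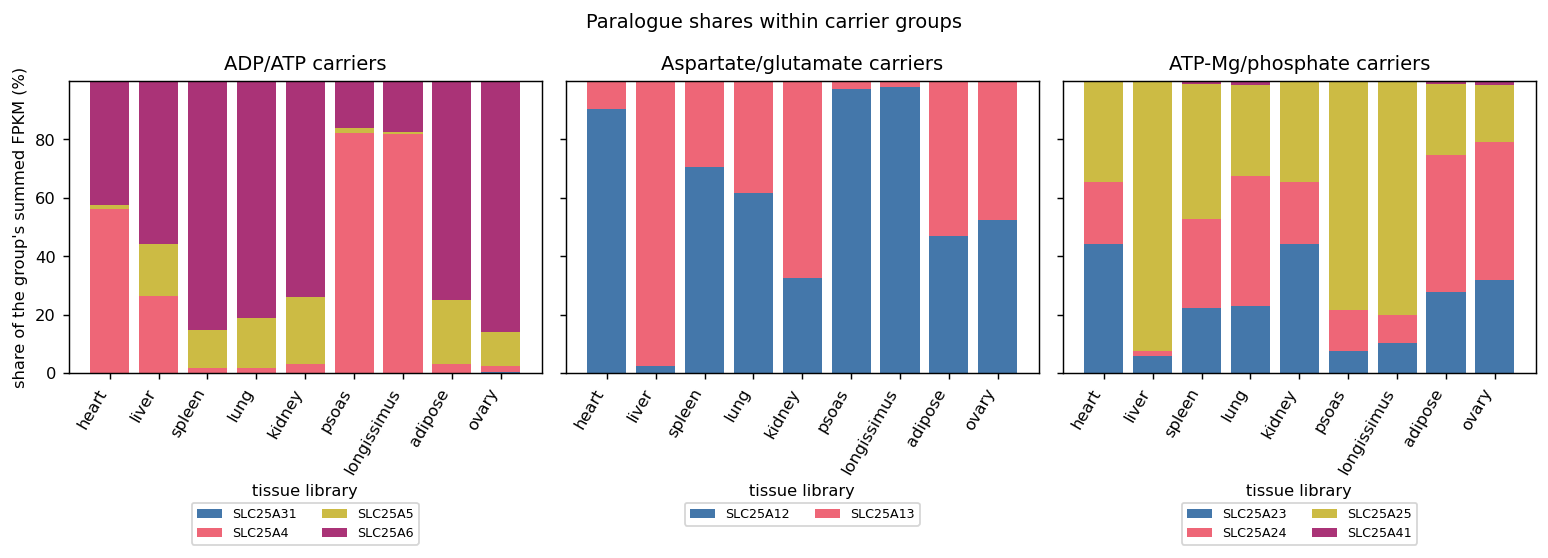
Share of each paralogue in the summed FPKM of its carrier group (percent, stacked to the whole) in the 9 tissue libraries, for the ADP/ATP, aspartate/glutamate and ATP-Mg/phosphate carriers. SLC25A4 leads in heart and both muscles and SLC25A6 elsewhere, SLC25A13 takes 97.3% of its pair in liver, and SLC25A25 takes 78.2% or more of its group in liver and both muscles.

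ATP-Mg/phosphate carriers, which adjust the matrix pool of adenine nucleotides and mostly respond to calcium, were transcribed at lower levels and by different genes in different tissues. SLC25A25 (ENSSSCG00000005636, chromosome 1, 268531752 to 268576994) stood at 30.7 FPKM in longissimus dorsi, 20.8 in psoas major, 18.0 in liver, 13.4 in kidney, 10.1 in spleen, 7.94 in lung, 4.38 in ovary, 4.27 in adipose tissue and 3.66 in heart. It took 92.4% of its group in liver, 80.0% in longissimus dorsi and 78.2% in psoas major. As deposited, SLC25A24 was highest in lung (11.3) and ovary (10.4) and stood at 0.329 in liver. Adipose tissue led it after median-of-ratios scaling. SLC25A23 was highest in kidney (17.4, against 7.13 in ovary), but in ovary relative to the respiratory chain. The gene model of SLC25A23 shares 1396 bp with that of SLC25A41. In heart SLC25A23 held 44.4% of the group, and in kidney the same share.

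The aspartate/glutamate carriers showed opposite tissues. SLC25A12 (ENSSSCG00000015949, chromosome 15, 77896281 to 78098303), which encodes aralar, stood at 128 FPKM in psoas major, 68.5 in heart and 64.0 in longissimus dorsi. It lay between 11.3 and 13.4 in kidney, spleen, lung and ovary, at 3.99 in adipose tissue and at 1.39 in liver. SLC25A13 (ENSSSCG00000015336, chromosome 9, 75763183 to 76306060), which encodes citrin, the form that feeds aspartate to the urea cycle in human liver, stood at 50.6 in liver and 27.8 in kidney. It was at 10.2 in ovary and below that elsewhere, down to 1.39 in longissimus dorsi. SLC25A13 made up 97.3% of the pair in liver and 67.5% in kidney, whereas SLC25A12 made up 90.6% in heart, 97.3% in psoas major and 97.9% in longissimus dorsi. The model of SLC25A12 overlaps that of HAT1 on the opposite strand, which was highest in ovary (46.5 FPKM) and stood at 14.3 in psoas major.

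SLC25A11, the 2-oxoglutarate/malate carrier that completes the malate-aspartate shuttle, stood at 77.9 FPKM in psoas major, 47.9 in heart and 45.0 in longissimus dorsi. It was at 14.1 in adipose tissue, 11.3 in kidney and 2.90 in liver. Its model overlaps that of PFN1 on the same strand, which was highest in spleen (320 FPKM), where SLC25A11 stood at 5.25. The shuttle enzymes MDH1, MDH2, GOT1 and GOT2 were all highest in heart, at 659.5, 459, 332 and 273 FPKM. In liver they stood at 46.5, 104, 58.1 and 43.0, so the enzymes were present there at levels above those of SLC25A11 and SLC25A12. SLC25A13, at 50.6 in liver, lay above MDH1 and GOT2 and below MDH2 and GOT1.

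Carriers of citrate, dicarboxylates and oxodicarboxylates were highest in kidney and liver. SLC25A1 (ENSSSCG00000010116, chromosome 14, 50974617 to 50977526), the citrate carrier that supplies fatty acid synthesis, stood at 104 FPKM in kidney, 87.6 in liver, 47.9 in adipose tissue and 31.7 in ovary. It was at 19.2 in spleen, 18.7 in lung, 12.7 in heart, 9.09 in psoas major and 7.93 in longissimus dorsi, and it lies within the model of MED15. The order of kidney and liver changed with median-of-ratios scaling. SLC25A10, the dicarboxylate carrier (ENSSSCG00000033620, chromosome 12, 1192134 to 1197275), stood at 206 in kidney, 68.3 in liver, 46.2 in adipose tissue and 7.12 to 27.9 in the other 6 tissues. SLC25A21, which carries oxodicarboxylates of lysine breakdown, was at 13.6 in kidney, 5.64 in liver and at most 1.28 elsewhere. Of 5 listed genes of lipid synthesis and cytosolic citrate use, FASN (52.2), the malic enzyme gene ME1 (43.1) and ACO1 were highest in adipose tissue and ACACA in ovary. ACLY, which cleaves citrate, was nearly level in spleen (29.3), lung (28.7), adipose tissue (28.7) and kidney (27.1), and stood at 10.5 in liver.

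Amino acid carriers followed several patterns. SLC25A15 (ENSSSCG00000009373, chromosome 11, 15494365 to 15557988), which brings ornithine into the matrix for the urea cycle, stood at 30.5 FPKM in kidney and 23.2 in liver. It was at 5.21 in ovary and at most 1.90 in the other 6 tissues. After median-of-ratios scaling liver lay above kidney. CPS1 and OTC, the matrix enzymes of that cycle, stood at 205 and 154 in liver and were listed at 0 in kidney, whereas ASS1 stood at 590 in liver and 1745 in kidney. SLC25A29, a carrier of basic amino acids, was lowest in liver (0.816) and highest in ovary (6.75) and spleen (6.53). SLC25A22, a glutamate carrier, stood at 22.2 in adipose tissue, 15.4 in kidney, 12.5 in liver and 1.33 in heart, and it overlaps CD151 on the opposite strand, which was also highest in adipose tissue (77.7). SLC25A44, which carries branched-chain amino acids, ran from 2.28 in spleen to 11.4 in kidney, but its model spans the RefSeq gene PMF1 as well.

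Kidney and liver were compared directly because they share gluconeogenesis and parts of the urea cycle. A difference counted when log2(FPKM + 1) differed by at least 1, that is 2-fold, among genes at 1 FPKM or more in either tissue. Of 40 members, 20 were higher in kidney and 2 in liver. Among all 12476 genes, 43.0% were higher in kidney and 7.61% in liver, and the median difference was 0.87, against 0.99 for the members, so the kidney share of the members lay near that of all genes. The differences towards kidney were led by SLC25A36 (31.0 FPKM against 1.999, a log2 difference of 3.41), SLC25A23 (17.4 against 1.14, 3.10), SLC25A24 (8.24 against 0.329, 2.80) and SLC25A12 (13.4 against 1.39, 2.59). These 4 and SLC25A46 (9.82 against 1.79, 1.95) were the 5 that stayed past 2-fold after median-of-ratios scaling. SLC25A47 (-8.86) and SLC25A4 (-1.37) were higher in liver under every scaling run. SLC25A13 stood at -0.84, and at -1.94 after median-of-ratios scaling. 10 members above 0 as deposited, among them SLC25A1 and SLC25A15, lay below 0 after that scaling.

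**Figure D4:**
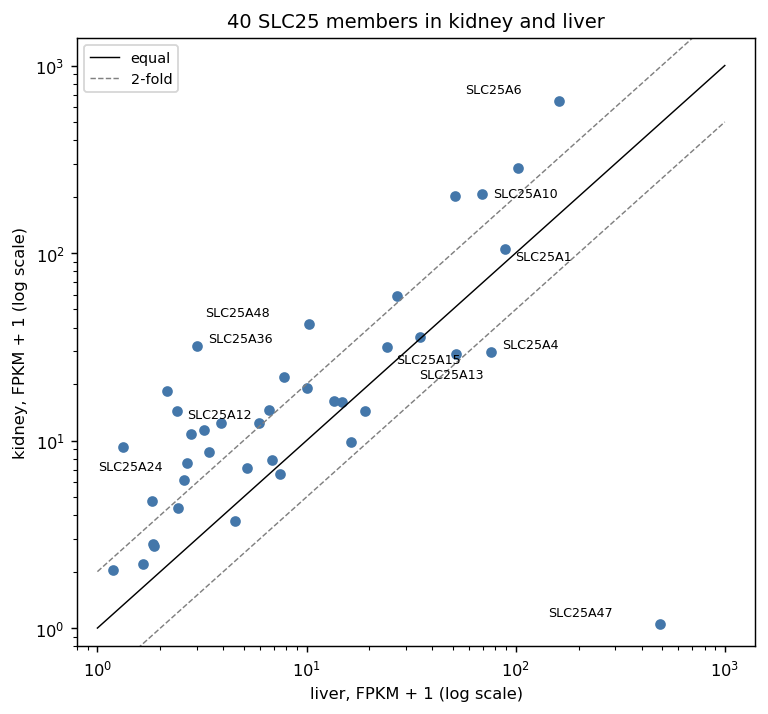
Kidney (vertical) against liver (horizontal) for the 40 SLC25 members at 1 FPKM or more in either, as FPKM + 1 on log axes. Each point is 1 gene in 1 library per tissue, the solid line marks equal values and the dashed lines 2-fold. SLC25A47 lies alone at the lower right, and 20 members lie above the upper dashed line.

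The carnitine/acylcarnitine carrier gene SLC25A20 (chromosome 13, 31523823 to 31553286) was one of the most even members. It stood at 57.8 FPKM in kidney, 54.9 in heart, 45.4 in spleen, 45.4 in adipose tissue, 42.2 in psoas major, 29.5 in longissimus dorsi, 26.1 in liver, 15.4 in lung and 15.0 in ovary. CPT1A and CPT1B, which make the acylcarnitine that it carries, divided the tissues between them. CPT1B stood at 155 in heart, 90.9 in psoas major and 38.2 in longissimus dorsi and at most 5.40 elsewhere, and CPT1A at 102 in kidney, 45.8 in liver and 5.74 in longissimus dorsi. In spleen SLC25A20 was thus close to its level in adipose tissue, while listed genes of fatty acid entry went both ways. The long-chain dehydrogenase gene ACADVL stood at 35.3 in spleen against 95.8 in adipose tissue, and ACSL1, CRAT and CPT2 were also lower in spleen. CPT1A was higher in spleen, at 36.6 against 21.1, and CPT1B slightly so, at 4.97 against 4.31.

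Iron carriers stayed below 10 FPKM in every tissue. SLC25A28 and SLC25A37, which encode the mitoferrins, ran from 4.21 (liver) to 9.19 (lung) and from 2.998 (longissimus dorsi) to 8.40 (spleen), and neither kept its highest class under all 4 scalings, SLC25A37 being highest in spleen only as deposited. SLC25A37 is the erythroid form in mouse. SLC25A38, which supplies glycine for haem synthesis, was highest in spleen (6.38), under all 4 scalings, and lowest in longissimus dorsi (1.19). All 5 erythroid markers were also highest in spleen, with a median of 22.7 FPKM there and 1.16 in lung, and ALAS2 stood at 38.5 in spleen and 14.4 in lung. Their part in these levels was not tested. SLC25A39 and SLC25A40, carriers of glutathione, ran from 13.7 to 34.7 and from 1.37 to 6.57, and SLC25A39 took between 75.8% and 95.3% of the pair in every tissue.

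Cofactor carriers were led by adipose tissue for a pair of genes. SLC25A17, which encodes a peroxisomal carrier of coenzyme A and related nucleotides (ENSSSCG00000000072, chromosome 5, 7622247 to 7671931), stood at 46.4 FPKM in adipose tissue, 18.0 in kidney, 16.0 in ovary, 14.7 in lung, 9.49 in spleen, 9.08 in liver, 3.06 in heart, 2.93 in psoas major and 2.81 in longissimus dorsi. Adipose tissue remained highest under all 4 scalings. SLC25A16, a relative of the coenzyme A carriers, was at 12.4 in adipose tissue and 6.44 in liver, and at 0.926 and 0.684 in psoas major and longissimus dorsi; liver led it after median-of-ratios scaling. SLC25A42, the mitochondrial coenzyme A carrier, ran from 5.56 in adipose tissue to 15.0 in kidney. SLC25A26, which carries S-adenosylmethionine, and SLC25A32, linked to folate and FAD, were highest in ovary as deposited, at 10.7 and 6.26.

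SLC25A36 and SLC25A33 carry pyrimidine nucleotides. SLC25A36 stood at 31.0 FPKM in kidney, 26.5 in adipose tissue, 24.1 in lung, 22.0 in spleen, 16.1 in ovary, 11.7 in heart, 8.63 in psoas major, 4.98 in longissimus dorsi and 1.999 in liver. SLC25A33 stayed below 3 in every tissue. Of the relatives of uncoupling proteins, SLC25A14 ran from 0.741 in longissimus dorsi to 4.69 in ovary. SLC25A27 ran from 1.05 in longissimus dorsi to 15.3 in liver. Its model overlaps the oxysterol hydroxylase gene CYP39A1 by 185 bp on the opposite strand, and CYP39A1 was also highest in liver (21.0) and lowest in longissimus dorsi (1.32). The part of that overlap in the level of SLC25A27 was not tested.

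Uncoupling proteins themselves belong to the family under other symbols. UCP2, the widely used form of immune cells, was highest in spleen (69.8 FPKM) and lung (55.3), with adipose tissue at 35.3 and liver at 2.93. UCP3, the form of skeletal muscle, stood at 25.3 in psoas major and 28.7 in longissimus dorsi but at 47.9 in adipose tissue, and at 1.10 in lung and below 0.1 in the other 5 tissues. The 5 skeletal muscle markers had a median of 5626 FPKM in skeletal muscle and 4.86 in the adipose library, where MYL11 stood at 13.3. Their part in the adipose level of UCP3 was not tested.

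Members with no agreed substrate included both narrow and broad profiles. SLC25A47 (ENSSSCG00000002515, chromosome 7, 121192450 to 121210374), known as a liver carrier in human and mouse, was at 491 FPKM in liver, where it exceeded every other member. It stood at 2.04 in adipose tissue, 0.725 in heart, 0.703 in psoas major, 0.541 in spleen, 0.464 in longissimus dorsi, 0.389 in ovary, 0.278 in lung and 0.0561 in kidney. It was the only member at least 5-fold above every other class on the FPKM + 1 scale, 1 of 41 beside 6.49% of all genes, and beside 1.51% for liver alone. Its level in adipose tissue was 0.415% of that in liver, and the corresponding value was 0.417% for ALB and 0.257% to 0.322% for the other 4 liver markers. In longissimus dorsi SLC25A47 was at 0.0945% of its liver level, and the liver markers at 0.0504% to 0.0969% of theirs. In heart and psoas major, where ALB was at most 0.445 FPKM, SLC25A47 was at 0.148% and 0.143%. Its levels in these muscles lay below 1 FPKM. The part of liver transcripts in the levels outside liver was not tested.

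SLC25A48 (ENSSSCG00000014311, chromosome 2, 137986982 to 138035736), linked to choline import in mouse and human work, stood at 41.1 FPKM in kidney, 9.32 in liver and 2.42 in ovary. It was at most 0.0650 in spleen, lung and adipose tissue and listed at 0 in heart and both muscles. SLC25A45 stood at 10.4 in kidney, 2.25 in liver and 1.04 in longissimus dorsi and below 1 elsewhere. Kidney exceeded liver 4.08-fold for SLC25A48 and 3.51-fold for SLC25A45 on the FPKM + 1 scale, short of 5-fold, and kidney led them under all 4 scalings.

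SLC25A34 (ENSSSCG00000032950, chromosome 6, 74909734 to 74920127) divided the tissues into high and low. It stood at 68.8 FPKM in adipose tissue, 48.1 in psoas major, 21.6 in longissimus dorsi, 20.9 in kidney, 16.1 in heart and 6.78 in liver, against 0.586 in ovary, 0.358 in lung and 0.281 in spleen. Adipose tissue led under all 4 scalings. The model overlaps that of TMEM82 by 4415 bp and that of PLEKHM2 by 692 bp, both on the same strand. TMEM82 stood at 6.99 in liver, close to SLC25A34 there, at 2.87 in kidney, 2.12 in heart and 0.0430 in lung. It was listed at 0 in adipose tissue, both muscles, spleen and ovary. PLEKHM2 stood at 59.4 in heart, 55.4 in psoas major, 52.9 in longissimus dorsi, 37.2 in adipose tissue, 28.5 in ovary, 28.3 in lung, 23.6 in spleen, 18.3 in kidney and 5.43 in liver. The part of TMEM82 and PLEKHM2 in the level of SLC25A34 was not tested. SLC25A35, the paralogue of SLC25A34, was also highest in adipose tissue, at 3.04, and stood at 0.896 in heart. Its model overlaps that of RANGRF by 5419 bp on the opposite strand. RANGRF was highest in heart (6.83) and stood at 5.04 in adipose tissue. The part of RANGRF in the level of SLC25A35 was not tested. SLC25A46, an outer membrane protein, ran from 1.79 in liver to 17.9 in psoas major, and SLC25A43 from 0.837 in liver to 6.07 in lung.

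**Figure D5:**
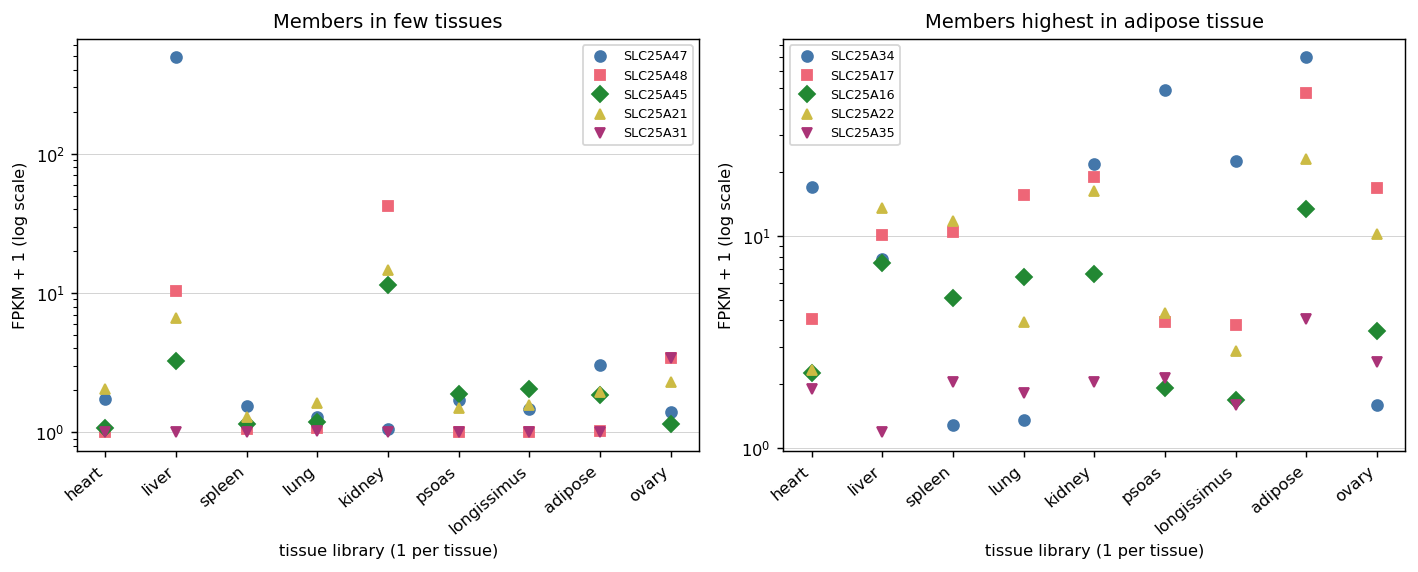
FPKM + 1 on a log axis in each of the 9 tissue libraries for 5 members found in few tissues (left) and the 5 members highest in adipose tissue (right). On the left SLC25A47 stands alone in liver at 491 FPKM and SLC25A48, SLC25A45 and SLC25A21 are highest in kidney. On the right SLC25A34 and SLC25A17 reach 68.8 and 46.4 FPKM in adipose tissue.

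Most carriers, like most of all genes, did not differ 2-fold between heart and both skeletal muscles. A member counted as different when log2(FPKM + 1) in heart lay at least 1 above or below each muscle. Of 35 members, 1 was higher in heart and 1 in muscle, beside 11.4% and 4.40% of 11145 genes. The member higher in heart was SLC25A6, at 657 FPKM against 135 and 141, a log2 difference of 2.25 from the muscle mean. The member higher in muscle was SLC25A25, at 3.66 against 20.8 and 30.7, a difference of -2.49. Both kept their side under every scaling. The median of the members was 0.37 and that of all genes 0.41, so the members lay near all genes. SLC25A13 (1.30) and SLC25A5 (1.14) lay more than 1 above the muscle mean but not above psoas major. Towards muscle, SLC25A34 lay at -0.96. SLC25A3 lay at 0.84, or 0.43 above the median of all genes, while SLC25A4 lay at 0.37 and turned to -0.14 after median-of-ratios scaling. The respiratory chain median was higher in heart than in either muscle.

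Psoas major and longissimus dorsi differed 2-fold in few carriers, and in few of all genes. Of 34 members, 3 were at least 2-fold higher in psoas major, beside 4.66% of 10513 genes, and none in longissimus dorsi, beside 2.09%. They were SLC25A46 (17.9 FPKM against 7.64), SLC25A5 (13.8 against 5.78) and SLC25A34 (48.1 against 21.6), with log2 differences of 1.13, 1.12 and 1.12. SLC25A12 (128 against 64.0) lay just under the threshold, at 0.99. The median of all genes lay 0.27 towards psoas major and that of the members 0.32, so the members lay near all genes. After median-of-ratios scaling none of the 3 passed, with values of 0.80, 0.82 and 0.76. SLC25A4 stood at 691 and 661 and SLC25A6 at 135 and 141. The respiratory chain median was 187 in psoas major and 116 in longissimus dorsi.

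As a description of profiles, each member's log2(FPKM + 1) over the 9 tissues was set against the median of the respiratory chain genes in the same libraries. Pearson's r was 0.89 for SLC25A3, 0.87 for SLC25A4 and 0.86 for SLC25A11, the 3 of 41 members over 0.8, beside 2.21% of all genes. SLC25A12 (0.796) and SLC25A46 (0.77) came next. SLC25A6 was at -0.00304, SLC25A5 at -0.51, SLC25A17 at -0.68 and SLC25A32 at -0.70. A negative r was the usual state, found for 29 of 41 members and 77.3% of all genes. The median r was -0.18 for the members and -0.35 for all genes. The 9 points share their libraries with the carriers and include 3 striated muscles, so the coefficients carry no p-value.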

How the data were processed

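The labels' protocols give TRIzol extraction of total RNA and an Illumina TruSeq RNA kit. TopHat2 2.1.0, StringTie 1.2.2 and the genome build Sscrofa11.1 are listed in the submitters' processing notes, with no role or order. Neither an annotation release nor strandedness could be read from the labels. The deposited table holds 1 value per gene and library, which was read as FPKM; its header names no unit.

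Tissue labels set the groups. Symbols were taken from an Ensembl name table (14857 genes) and otherwise from RefSeq genes of that build with a reciprocal best overlap of 0.5 or more of the longer model (1714 genes). SLC25A2, SLC25A18, SLC25A30, SLC25A51 and SLC25A52 matched no row and were not analysed here. The values of 1 member, included in all counts, are not reported here. Calls rest on log2(FPKM + 1) and fixed folds without a test, and the code was tested on simulated data. The rule for named genes admitted every member, with partner and overlapping genes beside them. Members and lists were chosen with earlier results of these data known. Pseudocount, threshold, fold, scaling and the exclusion of overlapping models were varied. Python 3.11.15, numpy 2.4.6, pandas 2.3.3 and matplotlib 3.10.9 were used.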

Additional observations from a re-analysis of the deposited data

How the results depend on the processing

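Of 123 alternative values for 21 results, 85 kept their value or, for counts, stayed within 1.5 times it, and 38 moved; a ratio counted as moved with any change. Members enriched in a class rose from 1 to 2 with a pseudocount of 0.1 (SLC25A31) or relative to the respiratory chain (SLC25A34), and to 4 at 3-fold. Members detected in all 9 tissues fell from 26 to 9 at 5 FPKM and to 17 without overlapping gene models, which left fewer members to count. After median-of-ratios scaling 9 members were highest in kidney, 11 in liver, 7 in skeletal muscle and 0 in lung. Relative to the respiratory chain 4 were highest in kidney, 7 in liver, 7 in lung, 4 in spleen, 8 in adipose tissue and 0 in heart. With Ensembl names only, 1 was highest in spleen. Members higher in heart numbered 3 with a pseudocount of 0.1 and 0 without overlapping models, and those higher in muscle 4 after median-of-ratios scaling and 3 relative to the respiratory chain. Members higher in psoas major numbered 5 after scaling to the mean library sum, and 0 with a pseudocount of 5, a log2 difference of 2, median-of-ratios scaling, the respiratory chain or centring on the median of all genes. Those higher in longissimus dorsi numbered 1 after median-of-ratios scaling and 2 relative to the respiratory chain. Members higher in kidney than liver numbered 5 under each of the latter scalings, 6 at a log2 difference of 2 and 8 when centred, and those higher in liver 8, 8, 1 and 7. The ratio of the highest to the lowest summed level was 3.72 (heart over ovary) in the reported values, 7.03 with median-of-ratios scaling and 3.74 without the ADP/ATP and phosphate carriers, then liver (918 FPKM) over lung (246). The Ensembl-only, no-adipose and centred alternatives were chosen after seeing the data. Falls without overlapping models or with Ensembl names only came from members left out, such as SLC25A6 for heart and SLC25A37 for spleen. The cause of the other shifts was not tested. Shares of all genes were computed for the reported settings only, so the counts under the alternatives mark nothing particular to the members. No paired analysis was possible because each tissue had 1 library. That single library also bars any error estimate, overlapping models may share reads, and low values rest on few fragments.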

Other observations

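The pooled library, whose label lists every organ above except adipose tissue and does not say which muscle, entered no comparison. There 42 of 43 SLC25 members lay within the range of the tissues it is labelled to contain, and SLC25A32 lay below it, at 1.63 FPKM against 2.16 to 6.26. The same count was not made over all genes, so it marks nothing particular to the members. SLC25A47 stood at 199.9 FPKM, 40.7% of its liver level. The 5 liver markers stood at 42.5% to 52.4% of theirs, the 5 lung markers at 20.9% to 27.0%, the 5 kidney markers at 5.43% to 8.54% and the 5 ovary markers at 0% to 0.283%. SLC25A31 was listed at 0 in the pool. SLC25A6 (289 FPKM) was the most abundant member, followed by SLC25A3 (234).

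Of other transporters and helpers of the inner membrane, 7 of 18 listed genes were highest in kidney, beside 13.0% of all genes. Among them was SFXN2 (33.5 FPKM), and the calcium uniporter partner MCUB was highest in ovary (75.1). The pyruvate carrier gene MPC1 was highest in adipose tissue (300.1), next to heart (192), while MPC2 was highest in heart (180.1). Of 11 genes for carrier import, 4 were highest in ovary, 2 each in heart, kidney and skeletal muscle, and 1 in spleen. Among all genes, 29.0% were highest in ovary, 7.04% in heart, 13.0% in kidney, 4.38% in skeletal muscle and 19.2% in spleen. The ovary count of the import genes thus lay near the share of all genes.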
